A study of Mus musculus with 2 samples.

Results

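The EGF family ligands and receptors were followed here as 9 genes of the 27998 in the count tables: 6 ligands (*Hbegf*, *Areg*, *Ereg*, *Tgfa*, *Btc* and *Nrg1*) and 3 receptors (*Egfr*, *Erbb2* and *Erbb3*). They were taken by their symbols, and all 9 were detected. *Hbegf* was chosen by its summed counts in endothelial cells (ECs), which were lower in hyperoxia, so its values in ECs are a description of what chose it. The data are scRNA-seq of whole lungs of C57BL/6 mice at postnatal day 14, when they were 2 weeks old. One library came from mice kept in room air (21% O2) and one from mice kept in hyperoxia (80% O2) from birth on. Each library pooled 8 mice before capture, so neither group had a replicate and the animals cannot be told apart.

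EGF family ligands are made as membrane proteins and are released when metalloproteases cut them off the cell surface, or act on neighbouring cells while still attached. They bind receptor tyrosine kinases of the ERBB family, which signal as pairs: EGFR is bound by HB-EGF, amphiregulin, epiregulin, TGF-alpha and betacellulin, ERBB3 by neuregulin, and ERBB2 has no known ligand of its own and serves as a partner of the others. In the lung these receptors are best known from the epithelium, where they act in growth and repair after injury.

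The room air library held 4234 barcodes and 39593888 UMIs (unique molecular identifiers, 1 for each counted mRNA molecule), and the hyperoxia library 13223 barcodes and 111934936 UMIs, with 17 barcodes in common. After filters on cells and removal of likely doublets, 3680 and 10472 cells remained, with medians of 8070.5 and 7221 UMIs. Clusters were assigned to endothelial (932 cells in room air and 2324 in hyperoxia), stromal (856 and 2623), epithelial (260 and 1046), myeloid (759 and 1458) and lymphocyte lineages (738 and 2620) from marker genes, and 135 and 401 cells of clusters with markers of several lineages were left out. Cell types are called "gCap-like" and so on, since the clusters were named anew from marker genes. Levels are given as CPM, the UMIs of a gene per 1000000 UMIs of a group of cells. Brackets hold exact 95% intervals, Poisson for CPM, conditional for ratios and Clopper-Pearson for shares of cells, and all of them cover counting error only. With 1 library per group no test was possible, and a difference cannot be told apart from one between libraries. A gene was called higher or lower when its mean level was at least 10 CPM and the libraries differed at least 1.5-fold. Genes counted as above 10 CPM are those with such a mean. A gene below 10 CPM in one library passed through the other library alone, which fixed its direction.

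Across the named cell types the ligands had separate sources, while the receptors lay mostly in epithelium and fibroblasts, as the heat map of levels shows. *Hbegf* led in pericyte-like and AT1-like cells, *Areg* in ILC2-like cells, *Ereg* in alveolar myofibroblast-like cells, *Nrg1* in classical monocyte-like, vein-like and ciliated-like cells, and *Erbb3* in epithelium. B-like cells, in which these genes are not known to be used, gave the level of free RNA, and each of the 9 genes lay between 0 and 2.57 CPM there in both libraries.

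**Figure D1:**
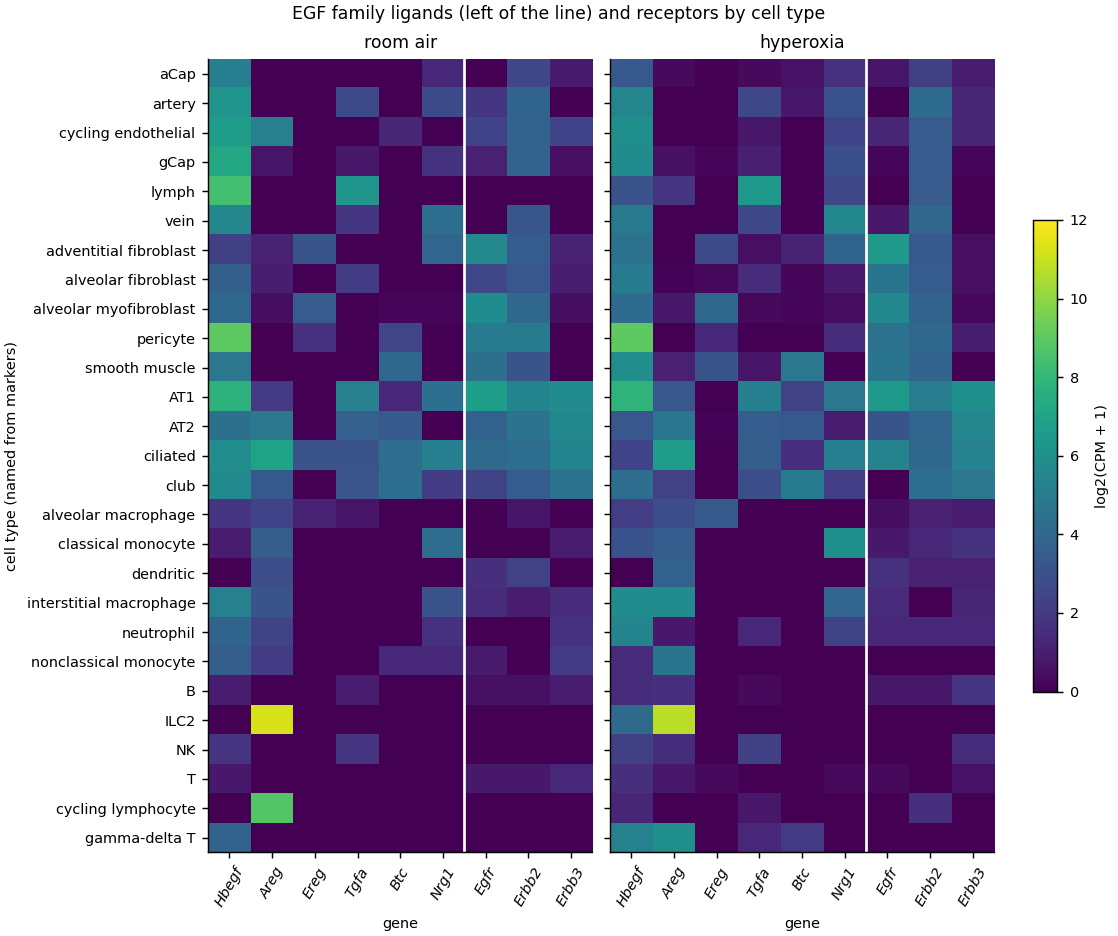
Levels of the 9 genes as log2(CPM + 1), with 1 row per named cell type, 1 column per gene and 1 panel per library. The *Areg* column is brightest in ILC2-like cells (2447 and 1703 CPM) and the *Hbegf* column in pericyte-like cells (501 and 519 CPM), and most of the myeloid and lymphocyte rows are dark for the receptors.

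*Hbegf* encodes HB-EGF, a ligand that binds heparin as well as EGFR and that is also transcribed within minutes of many stimuli as an immediate early gene. The gene (ENSMUSG00000024486) lies on chromosome 18 of mm10, from 36504927 to 36515805. In endothelial-like cells its level was 122 CPM (114 to 130, 970 UMIs) in room air against 32.4 CPM (29.9 to 35.0, 630 UMIs) in hyperoxia, or 3.76-fold lower. UMIs of the gene were found in 44.4% of these cells (41.2 to 47.7) in room air and in 17.5% (15.9 to 19.1) in hyperoxia. After each cell was thinned to 2000 UMIs the shares were 18.8% and 6.04%, and in B-like cells they were 0.270% and 0.526%. *Hbegf* was the only one of the 9 genes with a mean of at least 10 CPM in endothelial-like cells, where 6.66% of 8434 genes were higher in hyperoxia by the same rule and 8.77% were lower.

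Each EC subpopulation with at least 20 cells in both libraries had a lower *Hbegf* level in hyperoxia. In gCap-like cells, the general capillary ECs, it was 149 CPM (139 to 160) in room air against 54.0 CPM (48.6 to 59.9) in hyperoxia, a ratio of 0.363 (0.319 to 0.411). In aCap-like cells, the aerocytes, it was 33.7 CPM (24.3 to 45.6) and 8.86 CPM (6.91 to 11.2), a ratio of 0.263 (0.177 to 0.395). The log2 ratio in aCap-like cells, -1.93, was -1.16 without doublet removal and -1.33 with a doubled doublet rate. The background of genes lower in hyperoxia was 9.88% in gCap-like and 9.35% in aCap-like cells. In both libraries the interval of gCap-like cells lay above that of aCap-like cells. Artery-like cells went from 76.5 to 42.9 CPM, a ratio of 0.561 (0.353 to 0.913), and cycling ECs from 99.3 to 62.3 CPM, a ratio of 0.627 (0.453 to 0.873). Without the highest cell of each library these ratios were 0.637 (0.386 to 1.08) and 0.602 (0.427 to 0.851), so that the interval of artery-like cells included 1. In vein-like cells the levels were 43.8 and 28.3 CPM and the interval of the ratio, 0.352 to 1.24, included 1. In lymphatic-like cells 52 of the 54 UMIs in room air came from 1 of 12 cells, so no ratio is given.

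The makeup of the ECs moved with this difference. The gCap-like cells held 64.1% of the endothelial UMIs in room air and 34.4% in hyperoxia, and aCap-like cells 15.6% and 40.6%. With the room air makeup and the levels of hyperoxia, the endothelial level would be 45.0 CPM in place of 32.4 CPM, against 122 CPM in room air. The libraries also formed clusters of their own. All gCap-like cells fell into clusters of which one library made up 90% or more (called clusters of one library from here on), the largest led by *Wif1*, *Kit* and *Sparcl1* in room air and by *Ntrk2*, *Slc6a6* and *Rgcc* in hyperoxia. Markers of epithelium summed to 1322 CPM in endothelial-like cells of room air and 452 CPM in those of hyperoxia, and markers of stroma to 795 and 434 CPM. In the cells without any UMI of the rarer markers of other lineages, 709 and 1800 cells, the log2 ratio of *Hbegf* was -1.88, beside -1.91 in all endothelial-like cells.

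**Figure D2:**
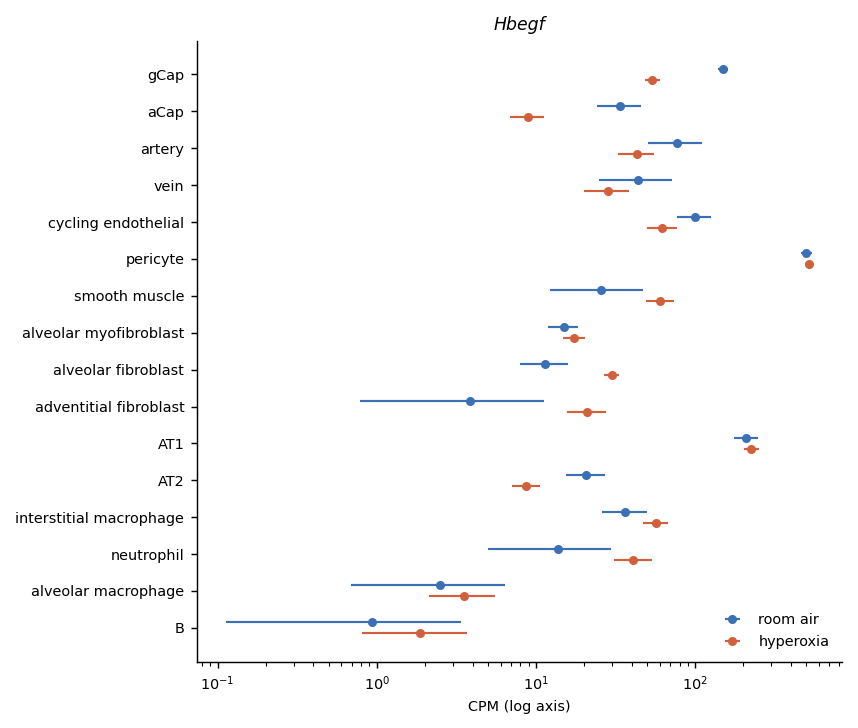
*Hbegf* in 16 cell types, as CPM on a log axis, with blue points for room air, orange points for hyperoxia and bars for the exact 95% Poisson interval. The orange points lie left of the blue ones in the 5 EC groups and AT2-like cells, on top of each other in pericyte-like and AT1-like cells, and to the right in fibroblasts, smooth muscle, interstitial macrophages and neutrophils.

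Outside the ECs, the direction of *Hbegf* differed among cell types. Pericyte-like cells, the mural cells that sit on capillaries, had 501 CPM (463 to 541, 131 cells) in room air against 519 CPM (488 to 552, 232 cells) in hyperoxia, with a ratio of 1.04 (0.939 to 1.15). They were the highest of the types with at least 20 cells in both libraries. AT1-like cells, the flat cells of the gas exchange surface, had 209 CPM (176 to 247) and 226 CPM (202 to 251), a ratio of 1.08 (0.883 to 1.32). In room air the interval of AT1-like cells did not overlap that of gCap-like cells, so that the order was pericyte-like, AT1-like, gCap-like. In hyperoxia the next named types were cycling ECs with 62.3 CPM (49.95 to 76.7), smooth muscle-like cells with 60.6 CPM (49.5 to 73.5), interstitial macrophage-like cells with 56.7 CPM (47.2 to 67.4) and gCap-like cells with 54.0 CPM, whose intervals overlapped. Pericyte-like cells held 30.5% of all *Hbegf* UMIs of cell types in room air and 33.2% in hyperoxia, whereas gCap-like cells went from 35.8% to 11.5%, shares that also move with the cells captured.

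Alveolar fibroblast-like cells had more *Hbegf* in hyperoxia, with 11.5 CPM (7.98 to 15.9) in room air against 29.9 CPM (26.9 to 33.1) in hyperoxia, a ratio of 2.61 (1.84 to 3.80). In smooth muscle-like cells the levels were 25.7 and 60.6 CPM, a ratio of 2.36 (1.23 to 5.07). Adventitial fibroblast-like cells had 3 UMIs in room air and 52 in hyperoxia, of which 18 came from 1 cell, and the ratio was 5.47 (1.77 to 27.4). In myeloid-like cells the level was 10.2 CPM in room air against 17.6 CPM in hyperoxia, a ratio of 1.72 (1.31 to 2.30). Interstitial macrophage-like cells had a ratio of 1.56 (1.08 to 2.29), and neutrophil-like cells one of 2.99 (1.29 to 8.51) that rested on 6 UMIs in room air. AT2-like cells, which make surfactant, went the other way, from 20.7 CPM (15.4 to 27.3) to 8.71 CPM (7.10 to 10.6). Ciliated-like cells had 63 UMIs of *Hbegf* in 13 of 26 cells of room air, with 16 in 1 cell, and 2 UMIs in 53 cells of hyperoxia. The median depth of ciliated-like cells was 21155.5 UMIs in room air and 3128 in hyperoxia, with medians of 3.49% and 4.77% mitochondrial UMIs, and the part of this in any ciliated value was not tested. The pooled epithelial-like cells went from 58.6 to 31.4 CPM while their makeup by UMIs also differed. AT2-like cells held 2416335 of the 5050508 epithelial UMIs in room air and 11708405 of 15128002 in hyperoxia. Ciliated-like cells held 1091006 and 466345 of them, and AT1-like cells 655032 and 1528900.

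Because *Hbegf* is an immediate early gene and tissue dissociation switches such genes on, a list of 16 immediate early and dissociation genes was set beside it. In gCap-like cells their median log2 ratio was 0.22, with a range from -0.56 to 0.80, against -1.46 for *Hbegf*. *Fos* was at 502 CPM in room air against 631 CPM in hyperoxia there, and *Egr1* at 338 and 368 CPM. In endothelial-like cells 2 of the 16 were higher in hyperoxia (*Fosb* and *Zfp36*) and none was lower, beside 6.66% and 8.77% of all genes. The list as a whole thus did not go down with *Hbegf* there. Alveolar fibroblast-like cells differed from this, since 12 of the 16 were higher and none was lower, where 8.31% of all genes were higher. The median log2 ratio of the 16 was 0.78 beside 1.38 for *Hbegf*. There *Fos* was at 992 and 1890 CPM and *Atf3* at 37.7 and 94.7 CPM. Pericyte-like cells had a median of 0.59 with *Hbegf* at 0.05, and AT2-like cells a median of -0.08 with *Hbegf* at -1.25. In epithelial-like cells as a whole 12 of the 16 were lower in hyperoxia and none was higher, beside 9.71% of all genes lower. The 16 genes had a median log2 ratio of -0.99 and a sum of 4502 CPM in room air against 2728 CPM in hyperoxia. *Hbegf* (log2 ratio -0.90) and *Areg* were lower in the same cells. This pooled median was not seen within the alveolar types. In AT1-like cells the median of the 16 was -0.13, with a range from -1.54 to 0.83, and *Hbegf* was at 0.11. In AT2-like cells the range was from -0.76 to 0.38. The makeup of the pooled epithelial-like cells differed between the libraries, and its part was not tested. The part of these genes in the *Hbegf* differences was not tested.

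**Figure D3:**
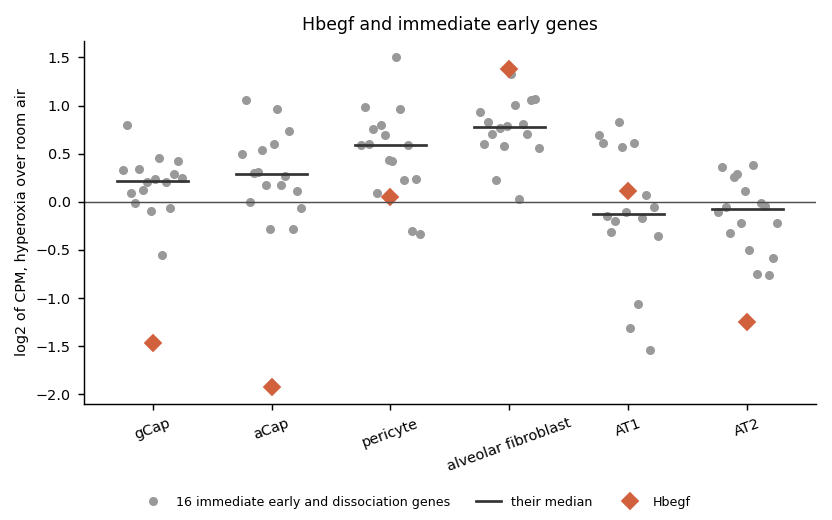
Log2 ratios of hyperoxia over room air in 6 cell types, with grey points for each of the 16 immediate early and dissociation genes, a line for their median and an orange diamond for *Hbegf*. The diamond lies below all grey points in gCap-like, aCap-like and AT2-like cells and above all of them in alveolar fibroblast-like cells.

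*Areg* encodes amphiregulin, a ligand of EGFR that group 2 innate lymphoid cells (ILC2s) and regulatory T cells release in tissue repair. ILC2-like cells had 2447 CPM (2164 to 2756) in room air against 1703 CPM (1580 to 1833) in hyperoxia, a ratio of 0.696 (0.604 to 0.803), from 12 and 60 cells. In room air 84 of the 271 UMIs came from 1 cell, and without the highest cell of each library the ratio was 0.842 (0.714 to 0.997). UMIs of *Areg* were present in 8 of the 12 cells and in 49 of the 60. The gene was not used in the clustering or the naming of these cells. They held 33.3% of all *Areg* UMIs of cell types in room air and 51.9% in hyperoxia. Ciliated-like cells, which move mucus along the airway, had 126 CPM (105 to 148) and 94.4 CPM (68.6 to 127), with 65 of the 137 UMIs of room air in 1 cell. A cluster led by *Ctla4* and *Foxp3*, the latter the defining factor of regulatory T cells, was left unnamed and had 107 CPM (63.6 to 170) and 53.1 CPM (34.0 to 79.0), where 14 of the 18 UMIs of room air came from 1 cell.

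In lymphocyte-like cells as a whole, *Areg* was 111 CPM (102 to 121) in room air against 66.3 CPM (61.8 to 71.2) in hyperoxia, the one gene of the 9 above 10 CPM and called lower, where 2.84% of 7604 genes were higher and 1.99% lower. Of the 532 UMIs of room air, 243 came from 2 of the 29 cycling lymphocyte-like cells, with 134 of them in 1 cell. The 93 cycling lymphocyte-like cells of hyperoxia had none, which allows a level of up to 2.14 CPM (3 UMIs of the total). No direction is read from the lymphocyte lineage for that reason.

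Other sources of *Areg* differed among themselves. AT2-like cells had 26.5 CPM (20.4 to 33.8) in room air against 25.2 CPM (22.4 to 28.2) in hyperoxia, a ratio of 0.951 (0.724 to 1.27), and UMIs in 14.5% and 15.3% of cells. Interstitial macrophage-like cells had 7.47 CPM (3.23 to 14.7) and 54.4 CPM (45.2 to 65.0), a ratio of 7.28 (3.58 to 17.3). The UMIs behind these levels were 8 from 2 of 83 cells and 122 from 12 of 206 cells, with 40 in 1 cell, and without the highest cell of each library the levels were 1.91 and 36.8 CPM. Gamma-delta T-like cells had no *Areg* UMI in 24 cells of room air, which allows a level of up to 19.8 CPM. In hyperoxia 11 of 111 cells held 39 UMIs (61.4 CPM, 43.6 to 83.9). Of these UMIs 16 came from 1 cell, and without that cell the level was 36.6 CPM. Endothelial-like cells had 3.51 and 0.308 CPM, with 25 of the 28 UMIs of room air in 3 cycling cells.

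The promoters of *Areg* and *Egfr*, a ligand and its receptor, are shown because *Areg* stood apart by its level in ILC2-like cells and *Egfr* had the largest ratio among the receptors. RefSeq promoters of GRCm38.p6 were matched for 5 of the 9 genes, and 250 bases before the annotated start are given 5′ to 3′ on the coding strand. Capitals mark matches to the letters TGACGTCA of the cAMP response element, TATAAA of the TATA box, TGACTCA of the AP-1 site and GGGCGG of the GC box, searched on both strands. The *Areg* window is chr5:91139349-91139598 and the *Egfr* window is chr11:16751953-16752202, both on the plus strand.
Areg: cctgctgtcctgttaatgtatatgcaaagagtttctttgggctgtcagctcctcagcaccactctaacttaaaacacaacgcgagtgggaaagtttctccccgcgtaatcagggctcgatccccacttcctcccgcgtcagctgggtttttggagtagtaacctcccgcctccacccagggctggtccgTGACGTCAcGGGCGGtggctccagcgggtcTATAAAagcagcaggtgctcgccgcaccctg
Egfr: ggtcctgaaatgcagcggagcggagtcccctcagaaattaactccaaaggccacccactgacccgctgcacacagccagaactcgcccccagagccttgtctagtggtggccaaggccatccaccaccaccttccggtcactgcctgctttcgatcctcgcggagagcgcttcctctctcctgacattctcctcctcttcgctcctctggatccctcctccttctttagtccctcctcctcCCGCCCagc

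The *Areg* window held the cAMP response element 61 bases before the start, a GC box 52 bases before it and a TATA box 31 bases before it, while the *Egfr* window held a GC box 9 bases before the start and none of the other motifs. Of all 32851 promoters in the table, 1.55% held the cAMP response element, 12.4% the TATA box, 4.46% an AP-1 site and 32.7% a GC box. These are matches of letters and not sites shown to be bound.

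*Ereg*, the gene of epiregulin, lies 45.95 kb upstream of *Areg* on chromosome 5 and was low throughout. Its main source was alveolar myofibroblast-like cells, contractile cells that help form alveolar septa, with 9.86 CPM (7.45 to 12.8) in room air against 15.2 CPM (12.8 to 17.8) in hyperoxia, a ratio of 1.54 (1.12 to 2.13). It was the one gene of the 9 called higher there, beside 5.54% of all genes. At 9.86 CPM in room air, it passed the limit on the mean through hyperoxia alone. After thinning to 2000 UMIs the log2 ratio was 0.04 in place of 0.62, and *Ereg* was found in 2.43% and 2.37% of the thinned cells. Clusters of one library held 53.4% of these cells in room air and 47.5% in hyperoxia. In stromal-like cells as a whole the levels were 5.77 and 6.17 CPM. Alveolar macrophage-like cells had 2 UMIs in room air and 50 in hyperoxia, of which 30 came from 1 cell.

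*Tgfa* and *Btc*, the genes of TGF-alpha and betacellulin, had ratios whose intervals included 1 in the types given here, except *Btc* in ciliated-like cells with 20 UMIs in room air and 1 in hyperoxia. *Tgfa* was at 36.6 CPM (23.5 to 54.5) and 34.7 CPM (26.0 to 45.3) in AT1-like cells and its ratio in AT2-like cells was 0.840 (0.555 to 1.31). Lymphatic-like cells were its highest source, with 74.7 CPM (38.6 to 131, 12 cells) in room air against 84.4 CPM (58.4 to 118, 45 cells) in hyperoxia, whereas the other EC subpopulations had at most 5.47 CPM. *Btc* was at 9.10 and 8.88 CPM in AT2-like cells and at 19.1 CPM (11.2 to 30.6, 11 cells) and 28.8 CPM (20.7 to 39.1, 49 cells) in club-like cells, the secretory cells of the airway. Smooth muscle-like cells had 15.4 CPM of *Btc* from 6 UMIs in room air against 26.5 CPM (19.3 to 35.4) in hyperoxia.

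*Nrg1* encodes neuregulin, the ligand of ERBB3 and ERBB4. In classical monocyte-like cells its level was 18.4 CPM (11.4 to 28.1) in room air against 62.2 CPM (49.2 to 77.5) in hyperoxia, a ratio of 3.38 (2.07 to 5.76), where 11.4% of 6933 genes were higher in hyperoxia. The gene was found in 16 of 114 of these cells in room air and in 45 of 156 in hyperoxia, with at most 7 UMIs in a cell. Vein-like cells had 19.2 CPM from 7 UMIs in room air against 47.1 CPM (36.4 to 60.1) in hyperoxia, and gCap-like cells had 2.35 CPM (1.21 to 4.11) and 6.57 CPM (4.77 to 8.82). Over all endothelial-like cells this gave 2.89 CPM (1.83 to 4.33) and 7.45 CPM (6.29 to 8.77), a ratio of 2.58 (1.66 to 4.201), while that of *Hbegf* was below 1. The log2 ratio of *Nrg1* there, 1.37, was 0.65 as a mean over cells and 0.69 after thinning, and 65 of the 145 UMIs of hyperoxia were in vein-like cells. AT1-like cells had 19.8 and 26.2 CPM, and ciliated-like cells 35.7 and 34.3 CPM, and both ratios had intervals that included 1. In epithelial-like cells as a whole *Nrg1* was at 10.9 and 4.76 CPM, with 39 of the 55 UMIs of room air in ciliated-like cells. The log2 ratio there, -1.19, was 0.43 after thinning, and that in vein-like cells, 1.30, was -0.52 after thinning and -0.15 as a mean over cells, so no direction is read from either.

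**Figure D4:**
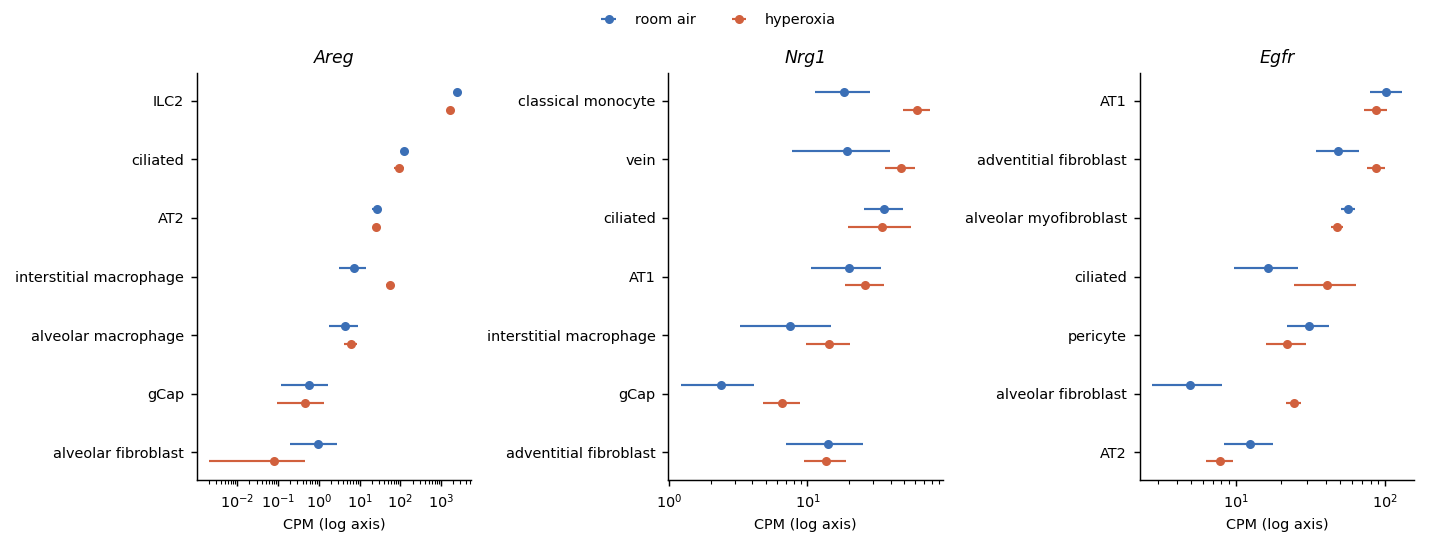
*Areg*, *Nrg1* and *Egfr* in 7 cell types each, as CPM on a log axis, with blue points for room air, orange points for hyperoxia and bars for the exact 95% Poisson interval. The bars of the libraries lie apart for *Areg* in ILC2-like and interstitial macrophage-like cells, for *Nrg1* in classical monocyte-like and gCap-like cells and for *Egfr* in alveolar fibroblast-like and adventitial fibroblast-like cells.

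Of the receptors, *Egfr* was nearly absent from ECs, with 1.26 CPM (0.602 to 2.31) in room air against 0.462 CPM (0.211 to 0.878) in hyperoxia, at the level of B-like cells (0.468 and 0.702 CPM). AT1-like cells had 102 CPM (79.3 to 130) and 87.0 CPM (72.8 to 103), and alveolar myofibroblast-like cells 56.3 CPM (50.3 to 62.9) and 47.5 CPM (43.2 to 52.0). In adventitial fibroblast-like cells the levels were 48.5 CPM (34.3 to 66.6) and 87.0 CPM (75.8 to 99.4), a ratio of 1.79 (1.27 to 2.60). AT1-like and adventitial fibroblast-like cells thus had the same level in hyperoxia, within their intervals.

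Alveolar fibroblast-like cells, the lipid-storing fibroblasts of the septa, had the largest *Egfr* ratio. The level was 4.91 CPM (2.75 to 8.10, 15 UMIs) in room air against 24.5 CPM (21.8 to 27.4, 298 UMIs) in hyperoxia, or 4.98-fold higher (2.97 to 9.01), and UMIs were found in 5.61% (2.93 to 9.59) and 18.6% (16.4 to 21.0) of cells. No cell held more than 6 of them. *Hbegf* and *Egfr* were the only genes of the 9 with a mean above 10 CPM in these cells. Both were called higher, beside 8.31% of all genes. *Egfr* was below 10 CPM in room air and passed through hyperoxia alone, so its direction is not set against that share. After thinning, the log2 ratio of *Egfr* was 1.43 in place of 2.32. Markers of epithelium, where AT1-like cells have both genes, summed to 215 CPM in stromal-like cells of room air and 460 CPM in those of hyperoxia, with 8 of 8 higher, and their part in these values was not tested. Most of these cells lay in clusters of one library, 81.8% of the 214 cells of room air and 87.2% of the 1149 cells of hyperoxia. The largest of those clusters was led by *Gyg*, *Slc38a5* and *Nebl* in room air and by *Cpm*, *Nebl* and *Ces1d* in hyperoxia. In stromal-like cells as a whole *Egfr* was at 37.5 CPM (34.0 to 41.3) and 38.1 CPM (35.8 to 40.4), so that the difference was not visible in the lineage. The stromal makeup differed as well. Alveolar fibroblast-like cells held 3053652 of the 11274882 stromal UMIs in room air and 12180361 of 28847659 in hyperoxia. Alveolar myofibroblast-like cells, with more *Egfr*, held 5679525 and 9629717 of them.

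*Erbb2* was spread over structural cells at low levels. AT1-like cells had 41.2 CPM (27.2 to 59.97) and 32.7 CPM (24.3 to 43.1), AT2-like cells 22.8 CPM (17.1 to 29.6) and 14.3 CPM (12.2 to 16.6), and pericyte-like cells 31.0 CPM (22.1 to 42.2) and 14.9 CPM (10.1 to 21.3). The ratio was 0.481 (0.289 to 0.792) in pericyte-like cells, where 11.4% of genes were lower in hyperoxia. In AT2-like cells *Hbegf*, *Egfr* and *Erbb2* were lower and none of the 6 genes above 10 CPM was higher, beside 7.26% of genes lower. *Hbegf* and *Egfr* were below 10 CPM in hyperoxia there and passed through room air alone. Without the highest cell of each library the *Egfr* ratio was 0.676 (0.435 to 1.08), no longer past 1.5-fold. Clusters of one library held 5.66% of the AT2-like cells of room air and 82.2% of those of hyperoxia. In endothelial-like cells *Erbb2* was at 11.04 CPM (8.86 to 13.6) and 8.22 CPM (6.997 to 9.60), the only receptor of the 3 there above the level of B-like cells.

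*Erbb3*, whose kinase is impaired and which signals through its partner, was highest in epithelial types among the named types with at least 20 cells in both libraries. AT2-like cells had 47.6 CPM (39.3 to 57.1) in room air against 46.1 CPM (42.3 to 50.2) in hyperoxia, a ratio of 0.969 (0.791 to 1.196), with UMIs in 49.1% and 48.4% of cells. AT1-like cells had 55.0 CPM (38.5 to 76.1) and 64.8 CPM (52.6 to 78.8), so that their interval overlapped that of AT2-like cells in room air and lay above it in hyperoxia. Ciliated-like cells had 41.2 and 38.6 CPM.

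**Figure D5:**
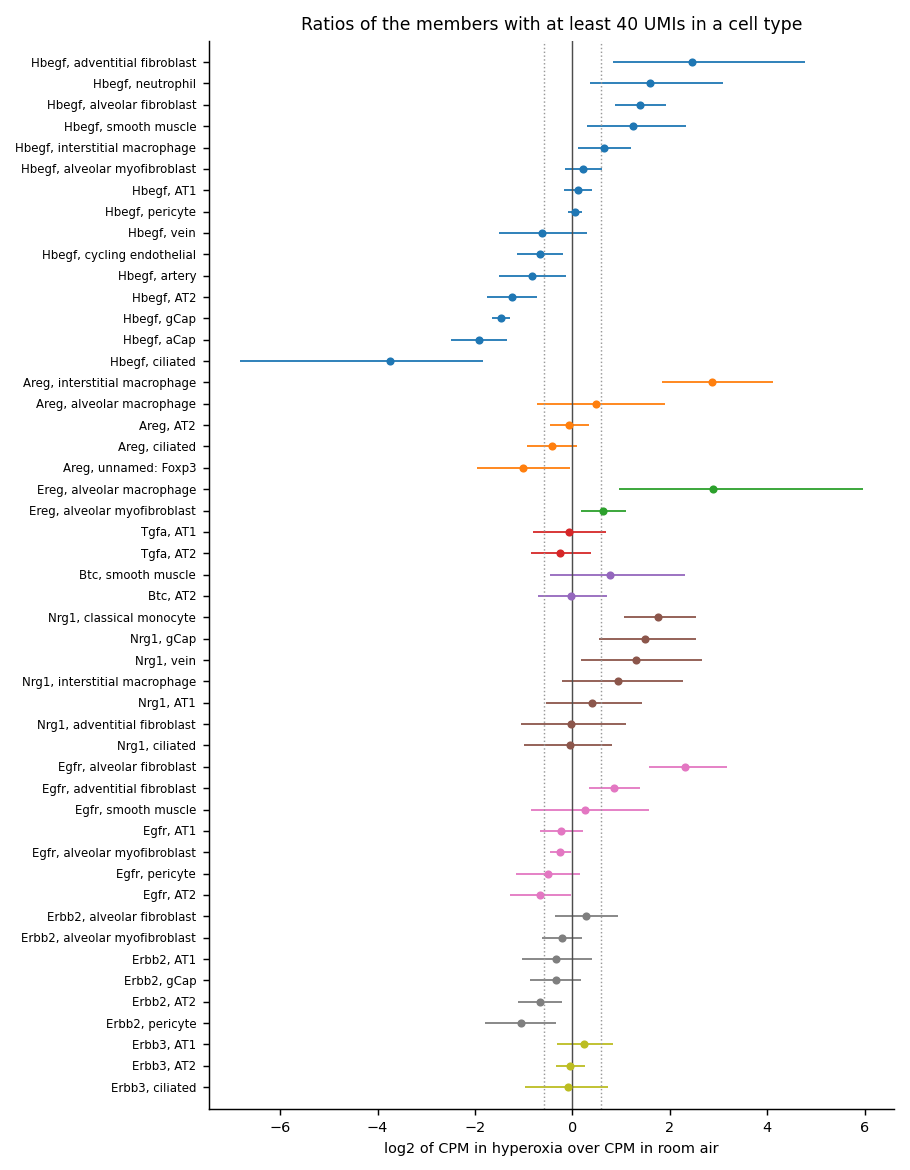
Log2 ratios of CPM in hyperoxia over room air for the 49 pairs of gene and cell type with at least 40 UMIs in the libraries together and at least 20 cells in each, with bars for the exact 95% interval and dotted lines at 1.5-fold. Of the 49 intervals, 25 include 0, and the points of the same gene lie on both sides of it for *Hbegf*, *Areg*, *Btc*, *Nrg1*, *Egfr*, *Erbb2* and *Erbb3*.

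By lineage, the calls among the 9 genes were few. In stromal-like cells 3 genes were above 10 CPM (*Hbegf*, *Egfr* and *Erbb2*) and none was called, beside 5.31% of all genes higher and 4.85% lower. In epithelial-like cells 7 were above it and 2 were lower (*Hbegf* and *Areg*), beside 4.51% higher and 9.71% lower. For *Areg*, 65 of the 211 epithelial UMIs of room air came from 1 cell, and without the highest cell of each library the ratio was 0.774 (0.636 to 0.946), which is no longer past 1.5-fold. In myeloid-like cells *Hbegf* and *Areg* were above it and both were higher, beside 4.69% higher and 8.48% lower. *Hbegf*, *Areg* and *Nrg1* were called higher in interstitial macrophage-like cells, where 8.29% of genes were. *Areg* and *Nrg1* were below 10 CPM there in room air and passed through hyperoxia alone, so their directions are not set against that share. *Hbegf* was higher in neutrophil-like cells, where 12.3% of genes were. For *Nrg1*, the levels in interstitial macrophage-like cells were 7.47 CPM (3.23 to 14.7) and 14.3 CPM (9.77 to 20.2), whose intervals overlapped. The room air level rested on 8 UMIs in 2 cells, with 7 of them in 1 cell. The median log2 ratio of all genes was between -0.09 and 0.05 in the 5 lineages.

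The other genes of the family were close to absent. *Egf*, *Epgn*, *Nrg2*, *Nrg3*, *Nrg4* and *Erbb4* summed to between 1.26 and 4.44 CPM in the endothelial, stromal, epithelial and lymphocyte lineages, and only *Nrg4* in myeloid-like cells reached 10 CPM on average, with 13.5 and 7.92 CPM. *Erbb4*, the other receptor of neuregulin, had no UMI in endothelial-like cells of either library.

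Genes for shedding and trafficking of the ligands, which include proteases, carriers and an inhibitor, were detected in ECs. All 12 of them were above 10 CPM in endothelial-like cells, and 4 were higher in hyperoxia (*Adam9*, *Adam12*, *Adam15* and *Timp3*) and none lower. Of all genes there, 6.66% were higher and 8.77% lower. *Adam17*, the main sheddase of HB-EGF and amphiregulin, was at 63.8 and 66.1 CPM, a ratio of 1.04 (0.935 to 1.15). *Timp3*, an inhibitor of that protease, was at 443 CPM in room air against 2407 CPM in hyperoxia, a ratio of 5.43 (5.25 to 5.62), and at 310 and 1526 CPM in pericyte-like cells. *Timp3* was also called higher in the stromal, myeloid and lymphocyte lineages, and not in the epithelial lineage. Of 12 inhibitors and degradation factors of the receptors, 10 were above 10 CPM in endothelial-like cells, 2 higher and none lower. In alveolar fibroblast-like cells 10 of the 12 were above it and 1 was higher, beside 8.31% of all genes. This was *Errfi1*, the feedback inhibitor of EGFR, at 47.8 and 102 CPM, a ratio of 2.13 (1.79 to 2.54). *Errfi1* was also called higher in stromal-like cells as a whole, in pericyte-like cells and in neutrophil-like cells.

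Of 11 ERK feedback targets, 9 were above 10 CPM in endothelial-like cells, 3 of them higher (*Dusp4*, *Spred2* and *Phlda1*) and 2 lower (*Dusp5* and *Spry2*). Whether they follow the receptors of this family there was not tested. Of all genes there, 6.66% were higher and 8.77% lower. *Spry2*, an inhibitor of receptor tyrosine kinase signalling, was at 61.9 CPM in endothelial-like cells of room air and 26.6 CPM in hyperoxia, and at 30.8 and 12.9 CPM in alveolar fibroblast-like cells. *Dusp6*, a phosphatase of ERK, was at 242 and 189 CPM in endothelial-like cells. In epithelial-like cells 8 of the 11 targets were above 10 CPM, with none higher and 3 lower (*Spry1*, *Spry2* and *Phlda1*), beside 9.71% of all genes lower.

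The genes with the most similar pattern were sought over 53 points, the 29 named cell types with at least 20 cells in a library, by Pearson's r of log2(CPM + 1). *Agrn* was most like *Hbegf* (r = 0.78), followed by *Wls* (0.77) and *Adcy9* (0.75). For *Areg* these were *Rnf128* (0.66) and the cytokine genes *Il13* (0.64) and *Csf2* (0.61). *Erbb3* was closest to *Rab25* (0.90), *Prr15l* (0.90) and *Slc44a3* (0.89), *Egfr* to *Tead3* (0.88), *Pcolce* (0.85) and *Dzip1l* (0.84), and *Erbb2* to *Phldb2* (0.90), *Sh3d19* (0.90) and *Tead1* (0.90). *Tgfa* was closest to *Ppl* (0.83), *Susd4* (0.82) and *Ttc9* (0.82), *Btc* to *Cobl* (0.78), *Sox6* (0.76) and *2310030G06Rik* (0.74), *Ereg* to *Ctsk* (0.73), *Pdgfrl* (0.72) and *Sntg2* (0.70), and *Nrg1* to *Lbp* (0.66), *Sec14l1* (0.65) and *Ifit3* (0.62). The points of a library share its depth and its free RNA, and these values describe likeness only.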

How the data were processed

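Single cells of digested whole lungs were captured by droplets, and 1 library of room air and 1 of hyperoxia were sequenced. The authors deposited raw UMI counts per gene and barcode, made with Cell Ranger against mm10. The processing notes give version 2.1.1, the labels 6.1.1 and the matrix header 3.1.0, and this was not settled. Cells needed 500 or more detected genes and no more than 20% of UMIs from mitochondria, and likely doublets were removed at 0.8% per 1000 barcodes by comparison with simulated pairs. The 2000 most variable genes, without the 9 genes, gave 30 principal components, 20 neighbours and Leiden clusters at a resolution of 1. A cluster took a name with at least 3 raised markers (in at least 5% of its cells and 0.5 above the other clusters on the log2 scale), a rule set after the clusters had been seen. Counts were summed per library and cell type and divided by the total to give CPM. No count model was fitted, and edgeR served for alternative scaling factors only. The ratio intervals were tested on simulated data. The 9 genes and the gene lists were chosen with earlier results of these data known. Genes named in the text are the 9 genes, the called or best known genes of each list, and the 3 genes most like each of the 9 among those reaching 50 CPM. The list of adaptors and RAS-ERK kinases and 1 unnamed stromal cluster are not reported here. In GENCODE annotation of mm10 none of the 9 shares exon bases with another gene on its strand. The depth was 39593888 and 111934936 UMIs, and 0 columns of sample values were unused. Alternatives covered cell filters, doublets, clustering, naming, scaling, thinning, single cells and makeup. Python 3.11.15, numpy 2.4.6, scipy 1.17.1, pandas 2.3.3, scikit-learn 1.9.0, igraph 0.11.9, leidenalg 0.10.2, matplotlib 3.10.9, R 4.3.3 and edgeR 4.0.16 were used.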

Additional observations from a re-analysis of the deposited data

Results flagged for a closer look

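*Hbegf* went in opposite directions in different cell types with at least 50 cells in each library. As hyperoxia over room air, its log2 ratio was 1.38 in alveolar fibroblast-like cells, 0.64 in interstitial macrophage-like cells and 1.58 in neutrophil-like cells. It was -1.93 in aCap-like cells, -1.46 in gCap-like cells, -0.67 in cycling ECs and -1.25 in AT2-like cells. *Egfr* had a log2 ratio of 2.32 in alveolar fibroblast-like cells and of -0.68 in AT2-like cells, where it was -0.57 and its interval included 0 without the highest cell of each library. The counting interval of each of these ratios lay on one side of 0. The differences between cell types were not tested, because each group was a single library.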

How the results depend on the processing

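No paired analysis was possible because each group was 1 library, and for the same reason no replicate could be left out. Of 137 alternative values for the log2 ratios of the 9 genes in their leading lineages, 119 stayed within the counting interval, 16 moved outside it and 2 of a ratio past 1.5-fold changed sign. Sign changes of the smaller ratios of *Ereg*, *Btc*, *Egfr* and *Erbb3* are counted by their interval only. Of 195 values for 18 ratios in cell types and of *Nrg1* in endothelial-like cells, 175 stayed, 18 moved and 2 changed sign in this way. *Hbegf* in endothelial-like cells (-1.91) was -1.44 with the makeup of either library in both, and between -2.04 and -1.44 in all. *Areg* in lymphocyte-like cells (-0.74) was -3.76 with stricter cell filters, 0.27 with a doubled doublet rate and -3.80 at a resolution of 2. It was -2.90 with cells named by their own marker score. In cells without UMIs of the rarer markers of other lineages, each found in under 5% of the cells, it was -1.42. It was -0.22 as a mean over cells, -0.26 after thinning and -0.47 without the highest cell of each library, an alternative chosen after seeing the data. *Nrg1* in epithelial-like cells (-1.19) was -0.52 without doublet removal, -1.81 with a doubled rate, -0.32 as a mean over cells and 0.43 after thinning. *Tgfa* in epithelial-like cells (-0.14) was -0.65 with a doubled doublet rate and -0.79 as a mean over cells. After thinning, *Ereg* in stromal-like cells (0.10) was -0.40 and *Egfr* there (0.02) was -0.19. *Nrg1* in vein-like cells (1.30) was -0.15 as a mean over cells and -0.52 after thinning. *Egfr* in alveolar fibroblast-like cells lay between 1.43 and 2.64, *Hbegf* there between 0.85 and 1.77 and *Nrg1* in classical monocyte-like cells between 1.196 and 2.04, whereas *Ereg* in alveolar myofibroblast-like cells lay between 0.04 and 0.72. The share of all genes called in endothelial-like cells was 15.4%, 23.9% with a minimum of 1 CPM and 4.68% with a 2-fold limit. After thinning, 8 of the 9 genes had their highest level in the same cell type. The causes were not tested. Depth limits the genes below 10 CPM and the types with few cells.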
